A study of Mus musculus with 3 samples.

Results

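Hox-positive differentiating granule cells were compared with Hox-negative differentiating granule cells of the same mice. The cells came from P7 cerebella of Eed cKO mice (Math1-Cre/Eed fl/fl, no treatment), and this genotype was shared by all 3 libraries, each made by Drop-seq from the cerebellum of 1 mouse, cut at the midline, of which a single side was used. Differentiating granule cells were taken as barcodes with 500 or more UMIs (unique molecular identifiers, which count captured transcripts), at most 10% mitochondrial UMIs, 2 or more UMIs summed over Cntn2, Adcyap1, Neurod1, Nhlh1, Barhl1 and Mab21l2, and no UMI of Gad1, Pax2, Pcp2, Calb1, Olig1, Actc1, Mki67 or Top2a. This left 564 of 3481 barcodes, of which 360 with 1 or more UMIs over the 30 Hox genes were called Hox-positive and 204 with none Hox-negative. The classes were therefore chosen by the Hox UMIs themselves, and values of Hox genes, of the 6 markers that had to be seen and of the 8 that had to be absent are given as descriptions with no test.

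In these mice Cre is driven by the Math1 (Atoh1) promoter, so cells of other origin in the same cerebellum keep Eed, and deletion was not read out cell by cell. The comparison is between cells of the same libraries, and no animals with intact Eed were analysed here. Replicates were separate mice, and the 2 cell classes of a mouse shared a library. No barcode sequence was shared between libraries (0 in each of the 3 pairs).

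EED is a core subunit of the Polycomb repressive complex PRC2, which places the H3K27me3 mark that keeps developmental regulators silent. The Hox genes, transcription factors that give segments their identity along the body axis, are classic targets of this repression and are normally silent in the cerebellum, which forms at the front of the hindbrain ahead of the Hox-expressing segments. Granule cell progenitors divide in the external granule layer in response to Sonic hedgehog (SHH), then leave the cell cycle, extend axons and migrate inwards as granule neurons.

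A sequence set is shown for the 2 Hox genes with the most UMIs and for Pou4f1 and Crabp1, the 2 other genes with the largest log2 fold changes below, since Polycomb complexes act at CpG-rich starts. Each run holds 300 bases of a RefSeq promoter of build GRCm38.p6 (250 before and 50 after the annotated start), 5′ to 3′ on the gene's strand, with every CpG in capitals.
Hoxa7: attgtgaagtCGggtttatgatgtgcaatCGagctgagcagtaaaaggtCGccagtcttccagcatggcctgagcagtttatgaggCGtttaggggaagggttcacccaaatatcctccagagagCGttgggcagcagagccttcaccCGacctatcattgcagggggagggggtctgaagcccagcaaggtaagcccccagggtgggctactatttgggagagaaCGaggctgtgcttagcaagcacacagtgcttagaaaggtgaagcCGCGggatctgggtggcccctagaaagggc
Hoxa9: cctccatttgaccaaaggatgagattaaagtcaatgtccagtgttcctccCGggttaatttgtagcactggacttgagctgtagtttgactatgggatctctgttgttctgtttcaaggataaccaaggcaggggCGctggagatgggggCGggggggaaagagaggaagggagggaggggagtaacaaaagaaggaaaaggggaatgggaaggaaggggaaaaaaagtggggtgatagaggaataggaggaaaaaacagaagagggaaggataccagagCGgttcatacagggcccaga
Crabp1: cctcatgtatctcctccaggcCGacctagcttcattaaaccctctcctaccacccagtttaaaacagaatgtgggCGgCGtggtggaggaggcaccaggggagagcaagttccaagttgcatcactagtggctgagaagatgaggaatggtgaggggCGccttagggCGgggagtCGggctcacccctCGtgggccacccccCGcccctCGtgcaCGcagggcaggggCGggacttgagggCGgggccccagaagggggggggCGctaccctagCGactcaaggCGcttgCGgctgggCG
Pou4f1: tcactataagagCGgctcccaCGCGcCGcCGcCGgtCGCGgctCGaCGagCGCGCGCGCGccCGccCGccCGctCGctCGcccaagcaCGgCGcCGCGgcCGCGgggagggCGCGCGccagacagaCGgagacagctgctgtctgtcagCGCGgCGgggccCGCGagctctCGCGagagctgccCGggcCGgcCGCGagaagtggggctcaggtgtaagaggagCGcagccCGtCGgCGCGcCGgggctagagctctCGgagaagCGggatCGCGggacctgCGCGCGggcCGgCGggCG
The Hoxa7 run lies at chr6:52218524-52218823 on the minus strand, the Hoxa9 run at chr6:52227321-52227620 on the minus strand, the Crabp1 run at chr9:54764498-54764797 on the plus strand and the Pou4f1 run at chr14:104467950-104468249 on the minus strand. The Hoxa7 window held 9 CpGs, a number reached by 48.1% of the genes with a promoter in the table, and the Hoxa9 window held 4 CpGs, reached by 69.7%. The RefSeq starts of both lie inside the genes as GENCODE annotates them (5′ ends at 52221854 and 52231089), so these counts are not those of the outermost annotated start. The Crabp1 window held 17 CpGs (reached by 33.9% of genes) and the Pou4f1 window 57 CpGs (reached by 0.181%). The sequences of the 4 windows thus differed widely in CpG content.

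Of 212, 149 and 203 differentiating granule cells in mice 1, 2 and 3, 128, 94 and 138 were Hox-positive. The share was 60.4% in mouse 1 (exact 95% binomial interval 53.5% to 67.0%), 63.1% in mouse 2 (54.8% to 70.8%) and 68.0% in mouse 3 (61.1% to 74.3%), with a mean of 63.8% ± 3.85 (SD, n = 3). These intervals overlapped and cover counting error only. When every cell was thinned at random to 500 UMIs, the share was 48.7% ± 2.39 (SD, n = 3).

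The same limits on depth gave far fewer Hox-positive cells elsewhere in these libraries. Among 263 cells outside the Atoh1 lineage (2 or more UMIs of interneuron, glial, myeloid, vascular or fibroblast markers and none of the granule markers), Hox UMIs were seen in 6.52% of 92 cells in mouse 1, in 0 of 39 cells in mouse 2, which allows a share of up to 7.69% at 3 counts (9.03% by the exact 95% interval), and in 13.6% of 132 cells in mouse 3. The mean was 6.72% ± 6.82 (SD, n = 3) at a median of 1165 UMIs per cell, against 980 UMIs in the differentiating granule cells, and 2.96% ± 2.57 after thinning. This share need not be the background that UMIs from free RNA could set. Barcodes with a granule marker UMI were left out, which also removes those that took up free RNA of granule cells. The source of these Hox UMIs was not tested. Proliferating granule progenitors (286 cells) lay between, with 33.0% ± 3.80 of cells and 16.1% ± 1.41 after thinning. They were barcodes with 1 or more UMIs of Mki67 or Top2a and 1 or more of Atoh1, Barhl1, Sfrp1 or Mfap4. None held a UMI of Gad1, Pax2, Pcp2, Calb1, Olig1 or Actc1, and this rule is unlike that for differentiating granule cells. Hox UMIs made up 2018 ± 166 CPM (UMIs scaled to a total of 1000000 per sum) in differentiating granule cells, 462 ± 61.8 CPM in proliferating progenitors and 71.0 ± 63.3 CPM outside the lineage (SD, n = 3). Every mouse had this order of the 3 kinds of cells, and since Hox UMIs define the classes no test was made.

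**Figure D1:**
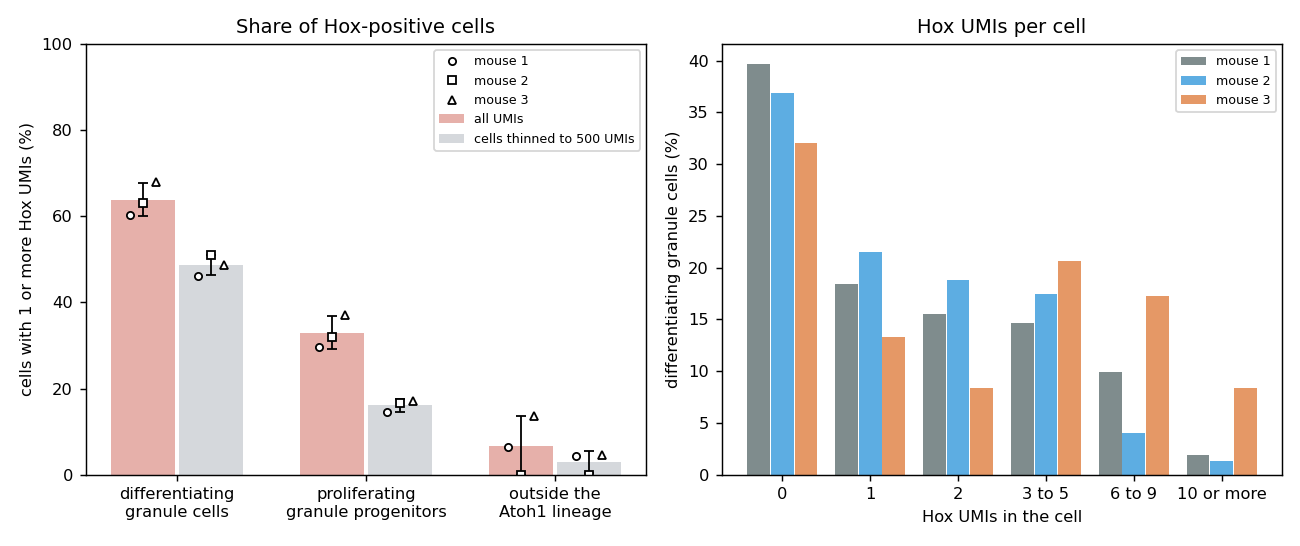
Left, percentage of cells with 1 or more Hox UMIs in 3 kinds of cells, from all UMIs and after thinning each cell to 500 UMIs (bars, mean; error bars, SD; symbols, 3 mice). Right, percentage of the differentiating granule cells of each mouse by number of Hox UMIs. The differentiating granule cells sit at 60.4% to 68.0%, above both other kinds in every mouse.

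Most Hox-positive cells carried few Hox UMIs. Of the 564 cells, 204 had 0, 98 had 1, 78 had 2, 99 had 3 to 5, 62 had 6 to 9 and 23 had 10 or more, with a maximum of 19. The 98 cells with a single Hox UMI stood just inside the threshold. Of the 145 cells with exactly 2 marker UMIs, 55.2% were Hox-positive, and of the 200 barcodes just outside with 1 marker UMI 35.5% held a Hox UMI. A further 171 barcodes were left out for 1 UMI of an excluded gene.

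Depth moved with the class. Median UMIs per cell were 993.5 in Hox-positive and 753.5 in Hox-negative cells of mouse 1, 827.5 and 724 in mouse 2, and 1540 and 1253 in mouse 3. The share of Hox-positive cells was 54.3% among the 175 cells under 750 UMIs and 85.7% among the 21 cells with 2500 or more. With all cells thinned to 500 UMIs the shares were 45.7%, 51.3%, 47.1%, 53.1% and 38.1% from the shallowest to the deepest of 5 bins, the deepest being those 21 cells. In mouse 1 they were 42.2%, 43.9% and 47.4% in the 3 shallowest bins and higher still in the fourth, an order that mice 2 and 3 did not have. A Hox-negative cell is therefore a cell in which no Hox UMI was captured, which does not show that it held none.

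All 30 Hox genes were seen in at least 1 Hox-positive cell. Levels are 3′-end UMI counts, which were not scaled by transcript length. Hoxa7 had the most UMIs, with 589, 422 and 500.04 CPM in Hox-positive cells of mice 1, 2 and 3. Hoxa9 stood at 302, 446 and 478 CPM, and Hoxc9 at 266, 387 and 332 CPM. The order of these genes differed between mice, since Hoxa7 led in mice 1 and 3 and Hoxa9 in mouse 2. Hoxb7 followed with 238 ± 26.4 CPM, Hoxb8 with 235 ± 58.8 CPM and Hoxa5 with 187 ± 30.3 CPM (SD, n = 3), values whose spreads overlapped. At the other end, Hoxd10 had 2 UMIs and Hoxa4 had 4. Hoxa3 spans Hoxa4, Hoxa5 and Hoxa6 on the same strand in the GENCODE annotation of GRCm38, so their UMIs may have been split unevenly by the counting.

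**Figure D2:**
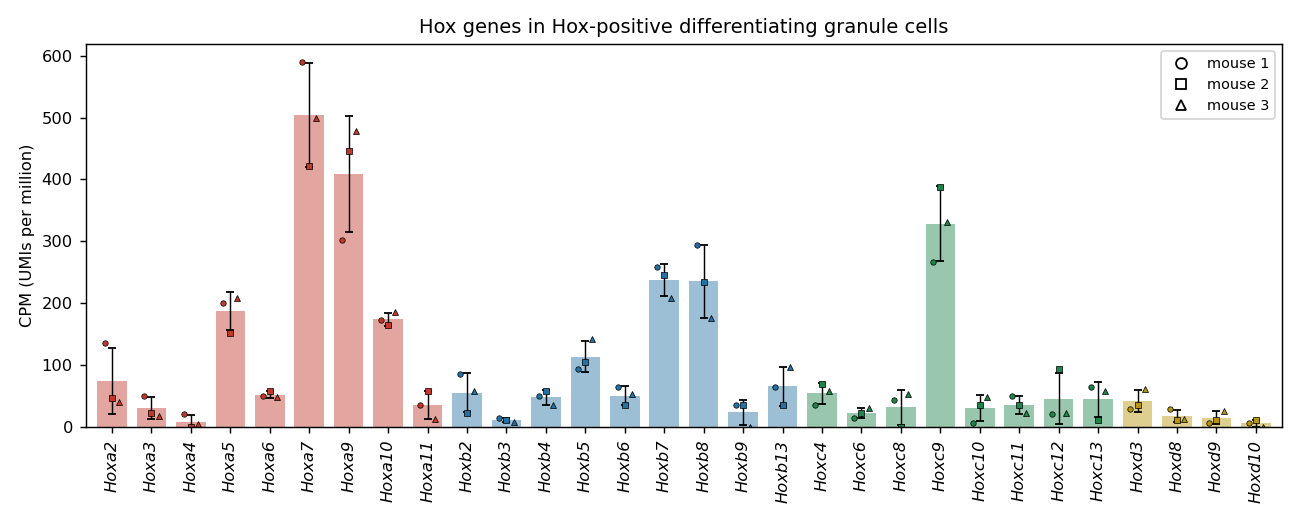
Level of each Hox gene in Hox-positive differentiating granule cells, in CPM, ordered by cluster and position in the cluster (bars, mean; error bars, SD; symbols, 3 mice; colours, HoxA red, HoxB blue, HoxC green, HoxD yellow). The levels peak at Hoxa7, Hoxa9 and Hoxc9, followed by Hoxb7 and Hoxb8, and the lowest mean is that of Hoxd10.

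The Hox UMIs came from all 4 clusters. HoxA on chromosome 6 gave 49.3% ± 1.49 of them, HoxB on chromosome 11 28.1% ± 2.67, HoxC on chromosome 15 19.9% ± 3.35 and HoxD on chromosome 2 2.72% ± 0.588 (SD, n = 3). By position, the paralog groups 5 to 8 gave 48.5% ± 4.13, the groups 9 to 13 gave 40.7% ± 6.51 and the anterior groups 2 to 4 gave 10.8% ± 2.48, from 10, 12 and 8 genes and with no gene of group 1 among the 30. The shares are sums over these genes and not per gene.

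Clusters were often seen in the same cell. Of the 360 Hox-positive cells, 237 (65.8%) held UMIs of 2 or more Hox genes and 58 of 5 or more, with up to 10 in a cell. HoxB UMIs were seen in 51.4% ± 10.3 of the 268 cells with a HoxA UMI and in 19.8% ± 1.79 of the 296 cells without (SD, n = 3). HoxC UMIs were seen in 33.4% ± 9.13 and 17.1% ± 4.26 of the same cells. Cells with a HoxA UMI were also deeper, with a median of 1120 UMIs against 863, and the part of depth in these shares was not tested.

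The 2 classes were checked against granule cell markers. Of markers the rule did not use, Zic1, a transcription factor of the granule lineage, stood at 1638, 1466 and 1628 CPM in Hox-positive cells and at 1404, 981 and 1267 CPM in Hox-negative cells. Pax6 stood at 302, 575 and 403 CPM against 423, 773 and 493 CPM. All of these lay above the mean of the other cells within the depth limits (759 CPM for Zic1 and 237 CPM for Pax6). Of the 11 markers checked, all 11 had class means above the mean of those cells, but only 5 (Zic1, Zic2, Pax6, Rbfox3 and Tubb3) were above it in every mouse of both classes. Neurod2, Nhlh2, Dcx, Unc5c, Sema6a and Astn1 fell below it in at least 1 mouse and class, with Astn1 at 0 in Hox-positive cells of mouse 2 and Hox-negative cells of mouse 3. Rbfox3 (NeuN), a marker of maturing neurons, stood at 144, 199 and 234.5 CPM in Hox-positive and 299.9, 251 and 234.6 CPM in Hox-negative cells and did not pass the test described below.

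The markers used by the rule differed in which class they favoured. Cntn2 (TAG-1), an adhesion protein of granule cells that have just left the cycle, stood at 424, 434 and 398 CPM in Hox-positive cells and at 232, 83.5 and 270.0 CPM in Hox-negative cells. Adcyap1, the neuropeptide PACAP, stood at 216, 305 and 288 CPM against 27.3, 20.9 and 0 CPM. With cells thinned to 500 UMIs these differences were smaller, at 423 ± 98.9 against 303 ± 109 CPM for Cntn2 and 299 ± 100.3 against 86.7 ± 44.8 CPM for Adcyap1 (SD, n = 3). Neurod1, a differentiation factor that persists in mature granule cells, was lower in Hox-positive cells, with 2249, 3484 and 2562 CPM against 2440, 4197 and 4048 CPM. Nhlh1 was higher in Hox-positive cells of each mouse (717 ± 215 against 443 ± 58.8 CPM, SD, n = 3), while Barhl1 (455 ± 85.0 against 449.6 ± 192) and Mab21l2 (362 ± 113 against 301 ± 60.9) differed by less than the larger SD, and both were lower in Hox-positive cells thinned to 500 UMIs (416 against 464 CPM and 341 against 359 CPM). Among the 201 cells with a Cntn2 or Adcyap1 UMI 82.8% ± 5.54 were Hox-positive, and among the 363 cells with neither 53.8% ± 2.45 were (SD, n = 3). The Hox-positive class thus held more of the cells with a Cntn2 or Adcyap1 UMI, and stage and Hox state cannot be told apart in the comparison that follows.

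UMIs were summed by mouse and class, and 1994 genes outside the rule were tested with edgeR with the mouse as a block. At an adjusted p under 0.05, 36 genes were higher in Hox-positive cells (1.81% of genes tested) and 20 were lower (1.0%), 56 in all (2.81%), while 238 had an unadjusted p under 0.05. The median log2 fold change of all tested genes was -0.01. Of the 56 genes, 52 moved the same way in all 3 mice and 39 had no overlap between the class values of the 3 mice, a separation that 12.3% of tested genes had. Among the genes with the smallest p, Map1b, Crabp1 and Nfib were higher in Hox-positive cells, and Ccnd2 and Egr1 were lower. The count depended on the treatment of error between mice: without the block edgeR called 4 higher and 2 lower genes, and DESeq2 with the block called 10 and 2, all of these among the 56 (83.3% of DESeq2's calls were higher, against 64.3% here). In cells thinned to 500 UMIs, 18 genes were higher and 8 lower, of which 15 and 4 were among the 56, and 43 of the 44 of the 56 genes that could be tested kept their direction. Without mouse 1, 18 genes were higher and 11 lower, without mouse 2, 26 and 10, and without mouse 3, 32 and 8.

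**Figure D3:**
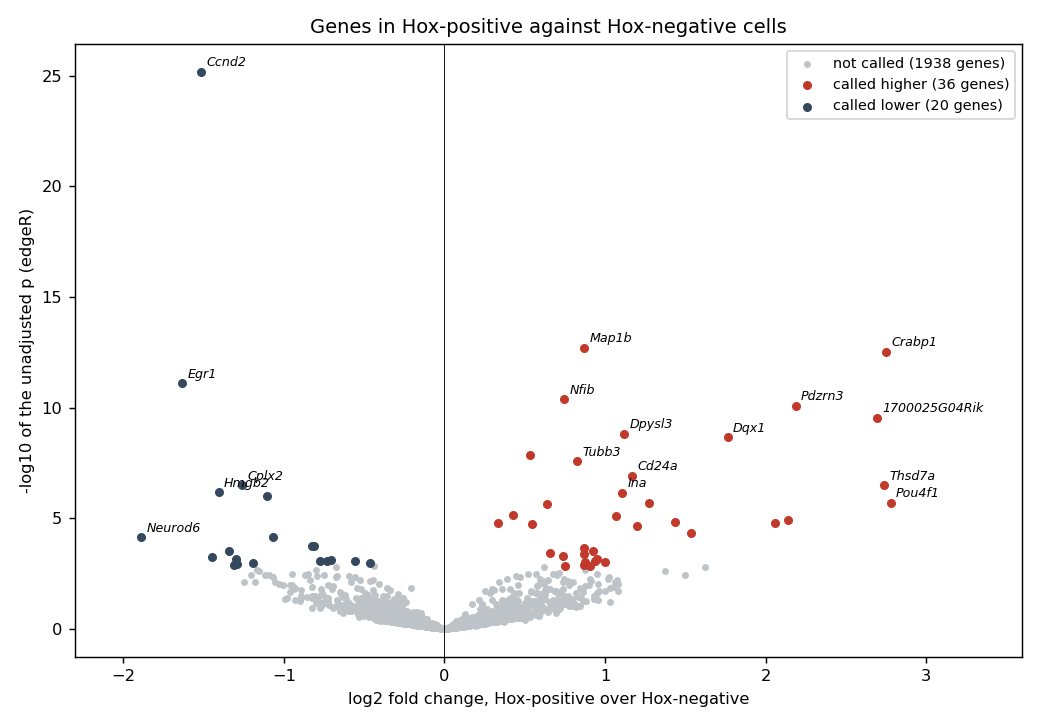
Log2 fold change (Hox-positive over Hox-negative cells, fitted by edgeR with the mouse as a block) against the -log10 of the unadjusted p for the 1994 tested genes. Red points are the 36 genes called higher and dark points the 20 called lower. Ccnd2 has the smallest p on the lower side, Map1b and Crabp1 on the higher side.

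Among the genes higher in Hox-positive cells, 7 had a mean level over 4 times that in Hox-negative cells. Crabp1, a cytosolic carrier of retinoic acid, stood at 453, 352 and 283 CPM in Hox-positive cells of mice 1, 2 and 3 and at 54.5, 20.9 and 70.4 CPM in Hox-negative cells. The lowest Hox-positive value was above every Hox-negative value, and the log2 fold change was 2.75 ± 0.38 (SE, edgeR adjusted p = 2e-10, higher in 3 of 3 mice). It passed in all 16 alternatives in which it could be tested, with adjusted p from 5.6e-12 to 0.050. In cells thinned to 500 UMIs its log2 fold change was smaller, at 1.81. Crabp1 was seen in 75 of the 360 Hox-positive cells and in 10 of the 204 Hox-negative cells.

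Pou4f1 (Brn3a), a POU-domain factor of sensory and brainstem neurons, stood at 194, 141 and 168 CPM against 13.6, 41.8 and 23.5 CPM. The classes did not overlap, at 77 UMIs against 5, and the log2 fold change was 2.78 ± 0.58 (SE, edgeR adjusted p = 0.00021, 3 of 3 mice), with adjusted p from 3.3e-06 to 0.042 in the alternatives that gave one. It is also in the list of markers of other hindbrain neurons. Outside the Atoh1 lineage 2 UMIs of Pou4f1 were counted in the 263 cells. In DESeq2 the gene received no adjusted p.

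Pdzrn3, a ubiquitin ligase with PDZ domains, stood at 280.3, 352 and 465 CPM against 81.8, 62.6 and 93.9 CPM (log2 fold change 2.19 ± 0.34, edgeR adjusted p = 2.8e-08, 3 of 3 mice) and passed in all 15 alternatives that tested it, with adjusted p from 4.2e-09 to 0.016. Thsd7a, a membrane protein with thrombospondin repeats, stood at 230.0, 141 and 195 CPM against 54.5, 0 and 23.5 CPM (2.74 ± 0.54, edgeR adjusted p = 4.7e-05, 3 of 3 mice). The transcript 1700025G04Rik stood at 287, 269.8 and 279 CPM against 0, 20.9 and 93.9 CPM (2.69 ± 0.43, edgeR adjusted p = 8.2e-08, 3 of 3 mice). None of these 3 genes overlapped between the classes, and Thsd7a and 1700025G04Rik missed the threshold in edgeR without the block (edgeR adjusted p = 0.055 and 0.054). For 1700025G04Rik the log2 fold change was 4.89 without mouse 3 and 2.05 without mouse 1, and for Thsd7a it was 3.49 without mouse 1, all past the threshold. In cells thinned to 500 UMIs the log2 fold change was smaller, at 1.67 for Pdzrn3 and 2.09 for 1700025G04Rik, and both passed.

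Hsd11b2, which inactivates glucocorticoids and is known from granule cell progenitors, stood at 151, 164 and 248 CPM against 54.5, 41.8 and 35.2 CPM, a log2 fold change of 2.14 ± 0.49 (SE). Prkce, a protein kinase C, stood at 187, 141 and 239 CPM against 40.9, 0 and 82.1 CPM (2.06 ± 0.48). Their edgeR adjusted p were 0.0011 and 0.0012, with up to 0.26 and 0.24 in the alternatives. Hsd11b2 missed the threshold without mouse 3 (1.68, edgeR adjusted p = 0.26) and Prkce without mouse 1 (1.99, 0.055), and Prkce stood at 2.78 without mouse 3. In all, 254 of 360 Hox-positive cells (70.6%) and 49 of 204 Hox-negative cells (24.0%) held a UMI of at least 1 of these 7 genes, a set picked by fold change after the values were seen.

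**Figure D4:**
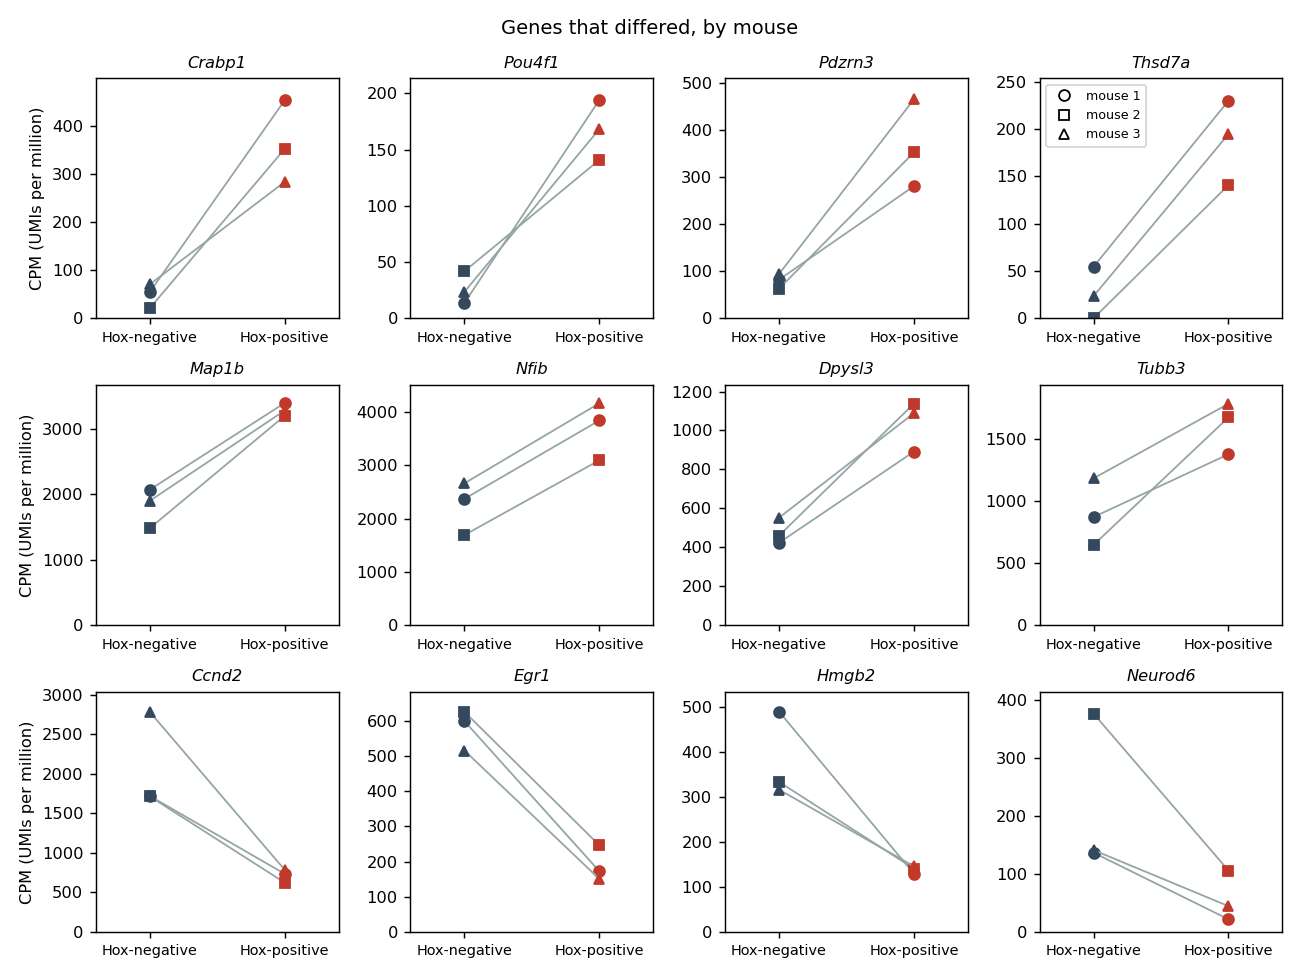
Level of 12 genes in Hox-negative and Hox-positive cells of each mouse, in CPM, with a line joining the classes of a mouse. The upper 8 genes are higher and the lower 4 genes lower in Hox-positive cells in all 3 mice.

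Genes of early neuronal differentiation had the most calls of the lists. Of the 25 genes in that list 23 could be tested; 7 were higher (1.81% of all genes tested were), none was lower and 16 did not pass, with a median log2 fold change of 0.44 against -0.01 over all genes tested. Map1b, a microtubule-associated protein of growing axons, stood at 3399, 3202 and 3283 CPM in Hox-positive and 2072, 1482 and 1901 CPM in Hox-negative cells. Its log2 fold change was 0.87 ± 0.12 (SE, edgeR adjusted p = 1.9e-10, 3 of 3 mice), and the classes did not overlap. Dpysl3, a collapsin response mediator of growth cones, stood at 891, 1138 and 1089 CPM against 423, 459 and 551 CPM (1.12 ± 0.18, edgeR adjusted p = 3.7e-07, 3 of 3 mice).

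Tubb3, the neuronal beta-tubulin, stood at 1379.8, 1678 and 1788 CPM against 872, 647 and 1185 CPM (0.82 ± 0.15, edgeR adjusted p = 4.7e-06, 3 of 3 mice). Stmn2, Mapt, Elavl4 and Crmp1 were the other members called, with log2 fold changes of 0.64, 0.75, 0.87 and 0.87. Stmn2 and Elavl4 overlapped between the classes although higher in every mouse, and Mapt was higher in 2 of 3 mice. Stmn2 missed the threshold without mouse 1 (edgeR adjusted p = 0.14), Mapt without mouse 1 or 3 (0.37 and 0.53), Crmp1 without mouse 1 or 2 (0.081 and 0.49) and Elavl4 without mouse 1, 2 or 3 (0.082, 0.051 and 0.13). In cells thinned to 500 UMIs Stmn2 (0.40, edgeR adjusted p = 0.16) and Crmp1 (0.52, 0.61) did not pass, and Mapt (0.93, 0.047) and Elavl4 (0.95, 0.030) did. Gap43, a growth cone protein, stood at 2156, 2440 and 2044 CPM against 1663, 2318 and 2241 CPM and did not pass (0.12 ± 0.12), nor did Stmn1 (0.24 ± 0.14) or Marcksl1 (0.23 ± 0.13).

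Outside the list, Ina (alpha-internexin, a neurofilament protein) rose by 1.11 ± 0.22 on the log2 scale, Cd24a (a surface protein of newborn neurons) by 1.17 ± 0.22, Ncam1 (neural cell adhesion) by 1.20 ± 0.28 and Dpysl4 by 1.27 ± 0.27 (SE). Their edgeR adjusted p were 8.5e-05, 2e-05, 0.0017 and 0.00021, and each was higher in 3 of 3 mice. Cnr1, the cannabinoid receptor, had a log2 fold change of 1.44 ± 0.33, Plcb1, a phospholipase C, 1.53 ± 0.38, and Dqx1, an RNA helicase family member, 1.76 ± 0.29. Dqx1 varied more between mice than between classes, with 711, 152 and 367 CPM in Hox-positive and 299.9, 41.8 and 46.9 CPM in Hox-negative cells, and its 195 Hox-positive UMIs lay in 25 of 360 cells. In cells thinned to 500 UMIs Cnr1 was at 0.30 (edgeR adjusted p = 0.89), Dqx1 at 0.76 (0.39), Cd24a at 0.67 (0.15), Ncam1 at 0.70 (0.43) and Dpysl4 at 0.80 (0.21), while Ina passed (1.12, 0.0045). Calls were lost without mouse 1 for Ncam1 (0.18), Cnr1 (0.20) and Plcb1 (0.082), without mouse 2 for Plcb1 (0.075) and without mouse 3 for Dpysl4 (0.099) and Cnr1 (0.26), and the log2 fold change was 2.67 for Dqx1 without mouse 1 and 2.18 for Plcb1 without mouse 3.

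Of 27 granule lineage transcription factors 19 could be tested, and 3 were higher, 1 was lower and 15 did not pass, where 1.81% and 1.0% of all genes tested were higher and lower (median log2 fold change 0.14). Nfib, a nuclear factor I protein that drives granule cell maturation, stood at 3845, 3097 and 4169 CPM against 2372, 1691 and 2663 CPM, with no overlap (0.75 ± 0.11, edgeR adjusted p = 1.7e-08, 3 of 3 mice). Its relatives Nfia and Nfix did not pass, at -0.03 ± 0.17 and -0.05 ± 0.15. Sox4 (0.66 ± 0.19, edgeR adjusted p = 0.020) and Nhlh2 (0.74 ± 0.21, edgeR adjusted p = 0.026) were also higher. Neurod6 was lower, with 21.6, 106 and 44.3 CPM against 136, 376 and 141 CPM (-1.89 ± 0.48, edgeR adjusted p = 0.0047, lower in 3 of 3 mice). It passed the filter on low counts only through the Hox-negative class. Calls were lost without mouse 1 for Sox4 (edgeR adjusted p = 0.13) and Nhlh2 (0.81), and without mouse 2 for Sox4 (0.23), Nhlh2 (0.078) and Neurod6 (0.076). In cells thinned to 500 UMIs Sox4 (0.41, edgeR adjusted p = 0.53) and Nhlh2 (0.81, 0.079) did not pass, while Nfib did (0.58, 0.00041).

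Of 18 genes of the SHH response and of progenitors 5 could be tested, and 3 fell (1.0% of all genes tested did), none rose and 2 did not pass, with a median log2 fold change of -1.29. Mycn and Sfrp1 passed the filter on low counts only through the Hox-negative class, so this count and median were partly set by the filter. Ccnd2, a D-type cyclin of dividing granule progenitors, stood at 733, 622 and 783 CPM in Hox-positive cells and at 1718, 1712 and 2781 CPM in Hox-negative cells. The classes were far apart in each mouse, with a log2 fold change of -1.52 ± 0.14 (SE, edgeR adjusted p = 1.3e-22, lower in 3 of 3 mice), the smallest p of all tested genes. Proliferating progenitors had a mean of 1669 CPM of Ccnd2, within 1 SD of the Hox-negative mean of 2070.1 ± 615 CPM.

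Mycn, an SHH target that drives progenitor growth, stood at 71.9, 106 and 79.7 CPM against 218, 167 and 223 CPM (-1.29 ± 0.40, edgeR adjusted p = 0.044). Sfrp1, a secreted Wnt modulator found in progenitors, stood at 108, 70.4 and 79.7 CPM against 177, 397 and 164 CPM (-1.30 ± 0.38, edgeR adjusted p = 0.033). Neither overlapped between classes, and each was lower in 3 of 3 mice, but adjusted p reached 1.0 among the alternatives. Mycn missed the threshold without mouse 1 (edgeR adjusted p = 0.34) and without mouse 3 (0.41), and Sfrp1 without mouse 1, 2 or 3 (0.055, 0.51 and 0.12). With no filter on low counts neither Mycn nor Sfrp1 passed (edgeR adjusted p = 0.26 and 0.22). Ccnd1 did not pass (-0.01 ± 0.26), and its difference from Ccnd2 was not tested.

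Of 20 S-phase genes 3 could be tested, and of 18 G2 and M phase genes 2; cells with Mki67 or Top2a had been left out by the rule. Hmgb2, a chromatin protein of cycling cells, fell from 491, 334 and 317 CPM in Hox-negative to 129, 141 and 146 CPM in Hox-positive cells (-1.41 ± 0.28, edgeR adjusted p = 8.5e-05, 3 of 3 mice), and did not pass without mouse 1 (-1.13, edgeR adjusted p = 0.15). Of 3 S-phase genes tested none passed, with log2 fold changes of -1.15 ± 0.38 for Mcm7, -1.09 ± 0.37 for Dut and -0.64 ± 0.42 for Pcna. Summed over all 18 members of the G2 and M phase list, the level was 568, 563 and 535 CPM in Hox-positive and 1649, 2046 and 1032 CPM in Hox-negative cells. The Hox-negative class thus held more transcripts of the cycle even without its defining markers, and the part of this in the other differences was not tested.

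Egr1, an immediate early gene that activity and dissociation induce, stood at 172, 246 and 150.5 CPM in Hox-positive and 599.8, 626 and 516 CPM in Hox-negative cells, with no overlap (-1.64 ± 0.24, edgeR adjusted p = 3.9e-09, lower in 3 of 3 mice). It passed in all 17 alternatives, with adjusted p from 7.9e-10 to 0.050. The other 6 of the 7 immediate early and stress genes tested did not pass, where 1.0% of all genes tested were lower. Among them were Ier2 (-0.75 ± 0.26, edgeR adjusted p = 0.092) and Jund (0.17 ± 0.24).

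Of 13 genes of mature granule neurons and synapses tested, none was higher, 1 was lower and 12 did not pass, where 1.81% and 1.0% of all genes tested were higher and lower. Cplx2, a complexin that acts in vesicle release, stood at 129, 176 and 274 CPM in Hox-positive and 259, 709.9 and 563 CPM in Hox-negative cells (-1.26 ± 0.25, edgeR adjusted p = 4.7e-05, 3 of 3 mice). It missed the threshold in cells thinned to 500 UMIs (-1.14, edgeR adjusted p = 0.15) and among cells with neither Cntn2 nor Adcyap1 (-0.79, 0.17), and also in DESeq2 (0.13) and without the block (0.28). Gria2, an AMPA receptor subunit, did not pass (-0.18 ± 0.22). Of the 3 axon guidance genes tested only Ncam1 was called higher (1.81% of all genes tested were), and Sema6a, a semaphorin of migrating granule cells, did not pass (0.66 ± 0.27).

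The machinery and other known targets of Polycomb repression were looked at next. None of 4 PRC2 genes tested passed, with log2 fold changes of -0.29 ± 0.22 for the catalytic subunit Ezh2, -0.44 ± 0.32 for Rbbp7, 0.45 ± 0.26 for Rbbp4 and 0.52 ± 0.29 for Mtf2. Eed itself was counted at 7 UMIs in Hox-positive and 6 UMIs in Hox-negative cells and was under the filter on low counts; in the fit with no such filter it did not pass (-0.68 ± 1.04, edgeR adjusted p = 0.998), so the UMIs do not tell whether deletion differed between the classes. None of the 18 PRC1 genes passed the filter on low counts, and of 6 trithorax and H3K27 demethylase genes none passed (median 0.46).

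Among the CDK inhibitors, Cdkn2a, a Polycomb target that encodes p16 and p19Arf, stood at 172, 141 and 124 CPM in Hox-positive and 109, 41.8 and 70.4 CPM in Hox-negative cells. The classes did not overlap, but at 64 against 16 UMIs the difference did not pass (0.93 ± 0.46, edgeR adjusted p = 0.39). Cdkn1c (p57) stood at 229.96, 235 and 296 CPM against 54.5, 229.7 and 153 CPM and did not pass either (0.95 ± 0.32, edgeR adjusted p = 0.091). Cdkn1b stood at 0.07 ± 0.26, and Cdkn1a, under the filter on low counts, did not pass in the fit with no such filter (0.72 ± 0.53, edgeR adjusted p = 0.998). Of 65 non-Hox developmental transcription factors in the tables only 2 were abundant enough, of which Pou4f1 was called and Nr2f2 was not (0.15 ± 0.40), and 11 were at 0 in both classes. Of all genes tested 1.81% were called higher. Pou4f1 passed the filter on low counts only through the Hox-positive class, so nothing follows from its call for the list.

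Lists of markers of other cells were looked at beside the class. Of 11 interneuron genes 3 could be tested, and Lhx5 (-1.45 ± 0.42, edgeR adjusted p = 0.029) and Neurod6, which is in this list too, were lower (1.0% of all genes tested were) while Lhx1 was not called (0.02 ± 0.23). Lhx5 and Neurod6 passed the filter on low counts only through the Hox-negative class, so this count was partly set by the filter. With no such filter Neurod6 passed (edgeR adjusted p = 0.019) and Lhx5 did not (0.17). Without mouse 1 Lhx5 did not pass (edgeR adjusted p = 0.44), nor did Neurod6 without mouse 2 (0.076). Summed interneuron genes gave 575, 622 and 469 CPM in Hox-positive and 886, 793 and 1079 CPM in Hox-negative cells. The 5 unipolar brush cell genes gave 93.4, 141 and 177 CPM against 273, 313 and 387 CPM, with Lmx1a at 0 in both classes. Neither sum overlapped between the classes, Gad1 and Pax2 were absent by the rule, and the part of such cells in the result was not tested. The list of other hindbrain neurons, which holds Pou4f1, summed to 287, 164.23 and 243 CPM in Hox-positive and 109, 104 and 164.25 CPM in Hox-negative cells over its 5 genes in the tables. Pou4f1 was its only member that could be tested, and the part of such cells in the result was not tested either. With cells holding any of 13 further markers of other types left out, 42 genes were higher and 21 lower, of which 31 and 12 were among the 56.

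Purkinje genes (188 to 766 CPM against 229.7 to 598 CPM), oligodendrocyte genes (92.9 to 164 against 62.6 to 164), astrocyte genes (387 to 637 against 397 to 1091), muscle genes (106 to 244 against 106 to 314), myeloid genes (11.7 to 35.9 against 20.9 to 258), endothelial genes (46.9 to 57.5 against 20.9 to 81.8) and pericyte genes (31.0 to 71.9 against 41.8 to 387) overlapped between the classes. The globin gene Hbb-bs varied widely between mice and stood at 266, 1103 and 102 CPM in Hox-positive and 2031, 292 and 93.9 CPM in Hox-negative cells. It was called lower (-0.81 ± 0.22, edgeR adjusted p = 0.011) although it was higher in 2 of 3 mice, without mouse 1 it was called higher (1.41, edgeR adjusted p = 0.014), and without mouse 2 the log2 fold change was -2.21.

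Of the 53 ribosomal protein genes tested 45 had a log2 fold change below 0, with a median of -0.17 against -0.01 over all genes tested. Only Rpl32 passed (-0.46 ± 0.14, edgeR adjusted p = 0.042, lower in 3 of 3 mice), where 1.0% of all genes tested were lower. This call was lost without mouse 1, 2 or 3 (0.35, 0.37 and 0.062). Malat1, a nuclear RNA whose share can mark RNA quality and which was picked after its values were seen, stood at 25023, 26547 and 21709.9 CPM in Hox-positive and 21034, 20275 and 17716 CPM in Hox-negative cells (0.33 ± 0.08, edgeR adjusted p = 0.0013, 3 of 3 mice), and its part in the other differences was not tested. None of 9 mitochondrial transcripts passed, and the median mitochondrial share was 1.72%, 1.78% and 1.20% of UMIs in Hox-positive and 1.82%, 1.94% and 1.44% in Hox-negative cells. The remaining genes called lower were Fxyd6 (-1.10), Anapc11 (-1.07), Zfp36l1 (-1.34), Pbdc1 (-1.31), Fam162a (-1.19), Selm (-0.77), Txn1 (-0.73), Atp2b1 (-0.71), Gm2694 (-0.82) and Ptn (-0.55), with edgeR adjusted p from 0.00011 to 0.049. Without mouse 3 all of these but Zfp36l1 lost the call, and Zfp36l1 lost it without mouse 2 (edgeR adjusted p = 0.52). In cells thinned to 500 UMIs Txn1 passed (-1.22, edgeR adjusted p = 0.0067), while Fxyd6 (-0.45, 0.61), Anapc11 (-0.30, 0.88), Selm (-0.53, 0.61), Atp2b1 (-0.69, 0.23), Gm2694 (-0.72, 0.24) and Ptn (-0.35, 0.61) did not, nor did Rpl32 (-0.23, 0.72).

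The difference between the classes was then followed across the number of Hox UMIs in a cell, a description for which depth differs (median 836 UMIs at 0 and 2131 at 10 or more Hox UMIs). The group with 6 or more held 25, 8 and 52 cells of mice 1, 2 and 3. Ccnd2 was 2070.1 ± 615 CPM in cells with 0 Hox UMIs, 1053 ± 156 with 1, 897 ± 453 with 2, 577 ± 226 with 3 to 5 and 285 ± 288 with 6 or more (SD, n = 3). Crabp1 was 48.6 ± 25.3, 173 ± 189, 297 ± 281, 316 ± 87.4 and 586 ± 225 CPM in the same order. Nfib went from 2242 ± 499 CPM at 0 to 4861 ± 206 CPM at 6 or more, and Tubb3 from 902 ± 270.0 to 2454 ± 403 CPM.

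Map1b stood at 1818 ± 303 CPM at 0 and already at 3018 ± 407 CPM with 1 Hox UMI, against 3822 ± 805 CPM with 6 or more. Pou4f1 did not differ beyond its spread between 0 and 1 Hox UMIs (26.3 ± 14.3 and 11.7 ± 20.2 CPM) and stood at 359 ± 128 CPM with 6 or more. Cdkn2a had no such order, with 73.7 ± 33.8 CPM at 0, 225.0 ± 73.0 CPM at 3 to 5 and 80.0 ± 72.3 CPM at 6 or more Hox UMIs.

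**Figure D5:**
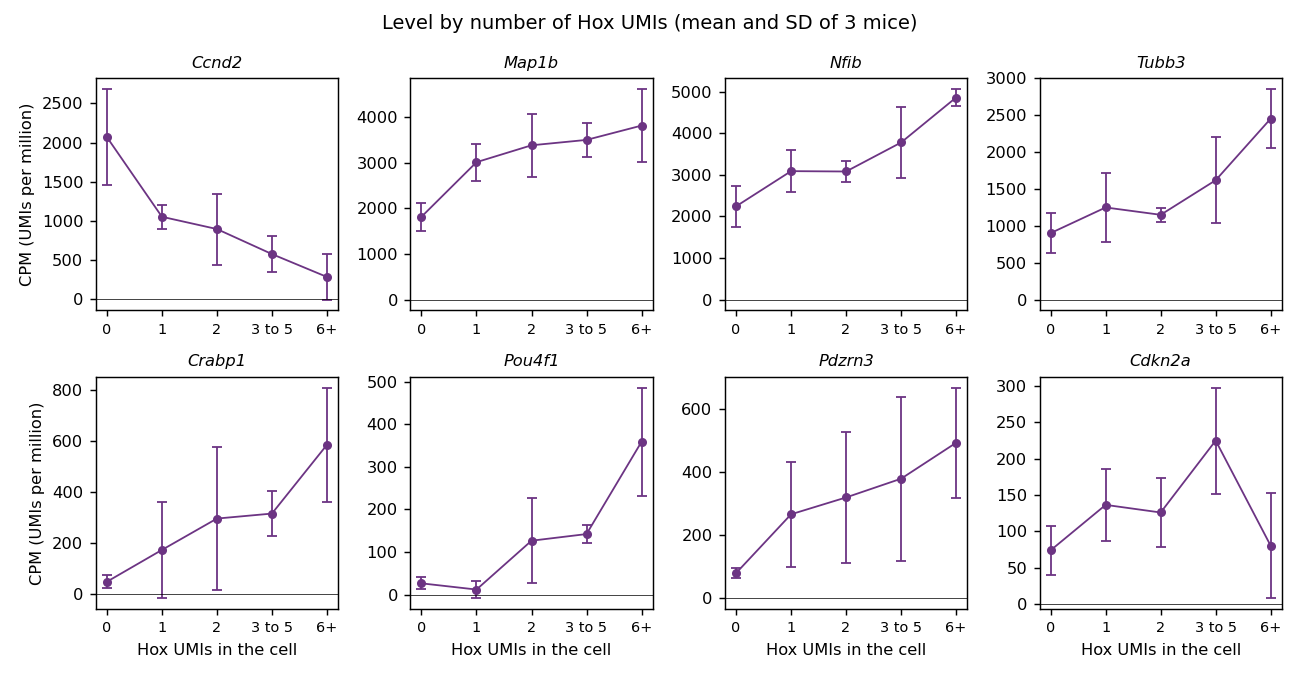
Level of 8 genes in CPM in differentiating granule cells grouped by their number of Hox UMIs (points, mean of 3 mice; bars, SD). Ccnd2 falls from 2070.1 CPM at 0 to 285 CPM at 6 or more Hox UMIs, Crabp1 and Nfib have their highest mean in the last group, and Cdkn2a has no such order.

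The comparison was repeated in cells split on UMIs of the early postmitotic markers, which need not make the classes equal in stage. Among cells with neither Cntn2 nor Adcyap1, a split added after the data were seen, 17 genes were higher and 5 lower, of which 16 and 5 were among the 56. There Ccnd2 had a log2 fold change of -1.51 (edgeR adjusted p = 1.2e-18), Map1b 0.95 (7.4e-10), Pdzrn3 2.57 (0.00016) and Egr1 -1.29 (0.00029) against -1.52, 0.87, 2.19 and -1.64 in all cells. Among cells with a Cntn2 or Adcyap1 UMI, where the Hox-negative class held 15, 5 and 16 cells, 534 genes could be tested, and 1 was called higher (Crabp1, 3.21) and 1 lower (Egr1, -2.27), while Ccnd2 stood at -0.77 and Map1b at 0.27 and neither passed. Among cells with no UMI of 9 progenitor genes, 9 were higher and 9 lower, of which 9 and 8 were among the 56. Ccnd2 (-1.29), Crabp1 (2.85), Map1b (0.61) and Tubb3 (0.66) stayed past the threshold there, while Nfib (0.44, edgeR adjusted p = 0.055), Dpysl3 (0.72, 0.092), Stmn2 (0.53, 0.092), Dpysl4 (0.73, 0.54), Ncam1 (0.95, 0.32), Cnr1 (1.11, 0.32), Plcb1 (1.54, 0.15), Sox4 (0.53, 0.58), Nhlh2 (0.65, 0.51), Elavl4 (0.49, 0.73), Crmp1 (0.43, 0.78) and Mapt (0.25, 0.88) did not. Of the 7 genes of early neuronal differentiation called in all cells, 5 thus lost the call there, and Map1b and Tubb3 kept it. Dpysl3 also missed it among cells with a Cntn2 or Adcyap1 UMI (1.39, 0.089) and among cells with neither (0.72, 0.073).

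The promoters of the called genes were compared as sequences. Of the 36 higher genes 24 and of the 20 lower genes 14 had a RefSeq promoter in the table, with a median of 26 and 17.5 CpGs in 300 bases against 24 over the 1474 tested genes with a promoter and 15 over the 15 Hox genes matched. The Hox and Pbx motif TGATTNAT, searched on both strands, was found in 0 of the 24 higher and 1 of the 14 lower genes (Pbdc1), in 1 of the 15 Hox genes (Hoxa2), in 1.29% of tested genes and in 3.74% of all promoters in the table. These letters are a description of the windows and say nothing on binding.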

How the data were processed

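Cerebella of 3 Eed cKO mice (1 side of each) were dissociated with papain and profiled by Drop-seq. The deposited files hold counts, whole-number UMI counts per gene and barcode that the authors made from their reads. The submitters' processing notes name STAR and mm10, and the counting tool, its strand setting and versions are not given in the sources used here. The tables held 3693051 UMIs of 16181 genes in 1401, 936 and 1144 barcodes, and the differentiating granule cells 212511, 133138 and 311215 UMIs.

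UMIs were summed by mouse and class. Genes outside the rule that passed edgeR's filter on low counts were tested with edgeR 4.0.16 (quasi-likelihood test, TMM, mouse as a block, Benjamini-Hochberg adjustment over all genes tested) in R 4.3.3, and with DESeq2 1.42.0 as an alternative. A gene could pass this filter through the sums of a single class. Standard errors come from the fit, which shares its estimate of error across genes, and do not measure the spread of a gene between the 3 mice. Hbb-bs, for example, had an SE of 0.22 although it was lower in mouse 1 and higher in mice 2 and 3. SDs come from the 3 mice. The classes of a mouse come from the same animal and library, and their deviations from the class means correlated at 0.14, 0.20 and 0.38 across 2495 genes. Sums of the 6 libraries and classes ranged from 47892 to 225980 UMIs, which set the precision of low genes. No doublet caller was run, cells with markers of other types were left out by the rule, and 1 of the 564 cells lay over 4 SD above the median depth or gene number of its mouse.

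Named genes were the 15 with the largest log2 fold change among the genes higher in all 3 mice, all 20 genes called lower, and from each list the called members with up to 4 others of highest level, plus Eed, Ezh2 and the CDK inhibitors Cdkn2a, Cdkn1a and Cdkn1c. The members, gene lists and tests were chosen with earlier results of these data known. Alternatives covered the block, the tool, the scaling, the filter, depth per cell, the Hox threshold, markers of other cells, stage and each mouse left out. Coordinates are from GENCODE vM21 (GRCm38). Of the listed genes, 34 non-Hox developmental transcription factors and 8 noncoding RNAs of the Hox clusters were not analysed here.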

Additional observations from a re-analysis of the deposited data

How the results depend on the processing

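Against 36 higher and 20 lower genes, the fit with no replicate block called 4 and 2 and DESeq2 10 and 2. With no filter on low counts 9 were lower, and this shifted the median log2 fold change of all genes from -0.01 to 0.13. Thinning to 500 UMIs gave 18 and 8, classes from thinned cells 19 and 8, cells with 500 to 1500 UMIs 19 and 7, and cells with 1000 or more UMIs 12 and 8. Cells with Cntn2 or Adcyap1 gave 1 and 1, cells with neither 17 and 5 (added after the data were seen), and cells with no progenitor UMI 9 and 9. Fewer cells or UMIs entered the thinned cells and the subsets of cells. Thinned cells were also classed anew in a single random draw, with 273 of 564 Hox-positive against 360 before. The other cells with a Hox UMI thus joined the Hox-negative class. Other causes were not tested. Leaving out each mouse gave 18 to 32 higher (18 without mouse 1, 32 without mouse 3) and 8 to 11 lower (8 without mouse 3, 11 without mouse 1). All other counts stayed within 1.5 times. The share of Hox-positive cells was 48.7% after thinning, 59.3% at 500 to 1500 UMIs and 70.0% at 1000 or more. It was 82.8% with Cntn2 or Adcyap1, 53.8% with neither and 70.5% with no progenitor UMI. At 2 or more Hox UMIs it was 55.8%, with the 98 cells that held 1 Hox UMI left out of both classes.

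Hbb-bs changed sign after thinning (0.22), with wider exclusion (0.93) and without mouse 1 (-2.21 to 1.41 over the mice left out), Rpl32 among cells with Cntn2 or Adcyap1 (0.26) and with no progenitor UMI (0.24), and Stmn2 among cells with Cntn2 or Adcyap1 (-0.036). Over the 44 named genes called, 377 of 664 values kept direction and call, 281 only direction and 6 reversed, and 4 (Crabp1, Egr1, Pdzrn3 and Pou4f1) passed in every alternative that gave them an adjusted p (10 for Pou4f1). At this depth Eed, Cdkn1a and the PRC1 genes fell under the filter on low counts.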

Other observations

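Myt1l, Myt1 and St18, which encode neuronal zinc finger proteins, were among the genes called higher in Hox-positive cells (1.81% of all genes tested were). They were picked after their values were seen, so nothing follows for them as a group. Myt1l stood at 409.6, 539.6 and 650.5 CPM in Hox-positive cells of mice 1, 2 and 3 and at 232, 209 and 317 CPM in Hox-negative cells. St18 stood at 280.3, 399 and 372 CPM against 204, 41.8 and 246 CPM, and Myt1 at 417, 317 and 296 CPM against 259, 125 and 153 CPM. None of the 3 overlapped between the classes. The log2 fold changes were 1.07 ± 0.24 for Myt1l, 0.95 ± 0.28 for St18 and 0.94 ± 0.28 for Myt1 (SE, edgeR adjusted p = 0.00069, 0.033 and 0.038, each higher in 3 of 3 mice). They passed in 10 of 17, 5 of 17 and 5 of 16 alternatives that tested them, with adjusted p of up to 1.0 for Myt1l, St18 and Myt1.

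Within the Hox-positive cells, the 75 with a Crabp1 UMI had a median of 5 Hox UMIs and the 285 without it a median of 2, at 1235 and 986 UMIs per cell. In the same cells Neurod1 was 1594 and 2965 CPM and Tubb3 2184 and 1472 CPM. The 52 with a Pou4f1 UMI had a median of 6 Hox UMIs, with Neurod1 at 1701 CPM and Tubb3 at 2094 CPM. In the 308 without it these were 2 Hox UMIs, 2855 CPM and 1537 CPM. Cntn2, Adcyap1 and Nhlh1 were higher in the cells with either UMI. All these levels are sums over the mice with no replicate error. Hoxa11os, a noncoding RNA of the HoxA cluster, had 12 UMIs in 9 Hox-positive cells and 0 in Hox-negative cells, and did not pass in the fit with no filter on low counts (edgeR adjusted p = 0.92).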
